A study of Mus musculus with 88 samples.

Results

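The major histocompatibility complex (MHC) class II genes studied here were 9 genes, taken by their symbols in the array's probe annotation: H2-Aa, H2-Ab1, H2-Eb1, H2-DMa, H2-DMb2, H2-Oa, H2-Ob, Cd74 and Ciita. All 9 were measured, among 17097 genes with a probe set (a group of short probes read as 1 value) annotated to that gene alone. Where a gene had several such probe sets, the one with the highest mean over all arrays stood for the gene, and the others served as a check. RNA from whole blood of female SNF1 mice, the F1 cross of SWR and NZB, which develop a lupus-like kidney disease with age, was hybridised to 88 single-colour expression arrays, 1 array per mouse. Pristane, a hydrocarbon oil that brings on autoimmunity in mice, was injected into the peritoneum at 9 weeks of age, and blood was taken from 8 treated and 8 age-matched untreated mice at each of weeks 2, 4, 8, 12 and 14 after the injection. A further group of 8 untreated mice was 36 weeks old and was selected for heavy proteinuria, the spontaneous disease. Week 36 is thus an age and not a time after injection. All groups shared 1 genetic background, and the untreated groups had no sham injection in the labels. Age and spontaneous disease cannot be told apart, since the spontaneous mice have no untreated group of their age without disease.

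The classical class II molecules hold peptides on the surface of B cells, dendritic cells and monocytes, where CD4+ T cells read them. H2-Aa and H2-Ab1 encode the alpha and beta chains of I-A, and H2-Eb1 the beta chain of I-E. Cd74, the invariant chain, fills the peptide groove until the molecule reaches the endosome, where H2-DM (H2-DMa with a beta chain such as H2-DMb2) exchanges the remaining fragment for peptide and H2-DO (H2-Oa with H2-Ob, mostly in B cells) restrains H2-DM. Ciita, the class II transactivator, does not bind DNA itself and switches the family on through factors bound at a shared promoter module. The Y box of that module, a CCAAT box in reverse, is bound by NF-Y.

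Promoter windows from 250 bases before to 50 after the transcription start were taken from RefSeq's promoter table (build GRCm38.p6) for 6 of the 9 genes, 7 windows in all, on chromosome 17. H2-Ab1 and Ciita had no entry. Cd74, which lies on another chromosome, was left out by choice, so the member counts below do not cover it. The stretches around the Y core of 5 genes are shown because they are the element these genes share, each written 5′ to 3′ on the strand of its gene, with the letters GATTGG on that strand in capitals:
H2-Aa, chr17:34287837-34287936, minus strand: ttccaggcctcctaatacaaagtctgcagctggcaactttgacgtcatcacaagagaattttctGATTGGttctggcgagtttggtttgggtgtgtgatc
H2-Eb1, chr17:34305743-34305842, plus strand: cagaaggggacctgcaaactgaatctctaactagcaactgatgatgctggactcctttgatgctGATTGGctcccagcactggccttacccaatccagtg
H2-DMb2, chr17:34145094-34145193, plus strand: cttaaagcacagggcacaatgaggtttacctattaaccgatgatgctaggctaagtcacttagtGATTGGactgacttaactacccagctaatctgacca
H2-Oa, chr17:34092271-34092370, plus strand: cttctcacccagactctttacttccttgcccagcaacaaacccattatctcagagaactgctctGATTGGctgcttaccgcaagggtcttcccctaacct
H2-Ob, chr17:34238783-34238882, plus strand: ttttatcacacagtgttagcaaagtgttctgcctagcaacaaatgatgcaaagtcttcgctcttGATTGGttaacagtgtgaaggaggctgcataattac
The core began 49 bases before the transcription start in H2-Aa, 60 in H2-Eb1, 91 in H2-DMb2, 44 in H2-Oa and 58 in H2-Ob. In H2-DMa, 1 of its 2 windows held the letters, 199 bases before the start. Searched on either strand, GATTGG was in 6 of the 7 windows and in 16.1% of all 32851 promoter windows of the table. The longer form CTGATTGG, which contains the first, was in the windows of H2-Aa, H2-Eb1 and H2-Oa and in 4.1% of all windows. A part of the X box, counted only where spelled AGNNACNGA, was in the windows of 3 members and in 17.7% of all. Starting 15 to 35 bases before the Y core on 1 strand, this exact spelling was in H2-Eb1 alone among the 6 members searched, against 0.1% of all windows. The printed stretches of H2-Oa and H2-Ob hold a near spelling, agcaacaaa, before the core, which was not counted. A window without a match can thus still hold an X box. These matches are letters in a reference sequence, and no binding was measured.

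Values are log2 signals after robust multi-array averaging (RMA), so a difference of 1 is a 2-fold change. They compare samples for 1 probe set and not 1 gene with another. A call is an adjusted p under 0.05 (limma over 45037 probe sets, Benjamini-Hochberg), with no fold threshold. Array medians ran from 3.78 to 4.01, and the labels give no plate, scan date or batch. By the mean over all arrays the 9 probe sets lay between the 82.2nd percentile of all probe sets (Ciita, mean 6.50) and the 99.7th (Cd74, mean 11.99). Whether fewer cells of a type or less RNA per cell lay behind a value cannot be told apart in whole blood.

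**Figure D1:**
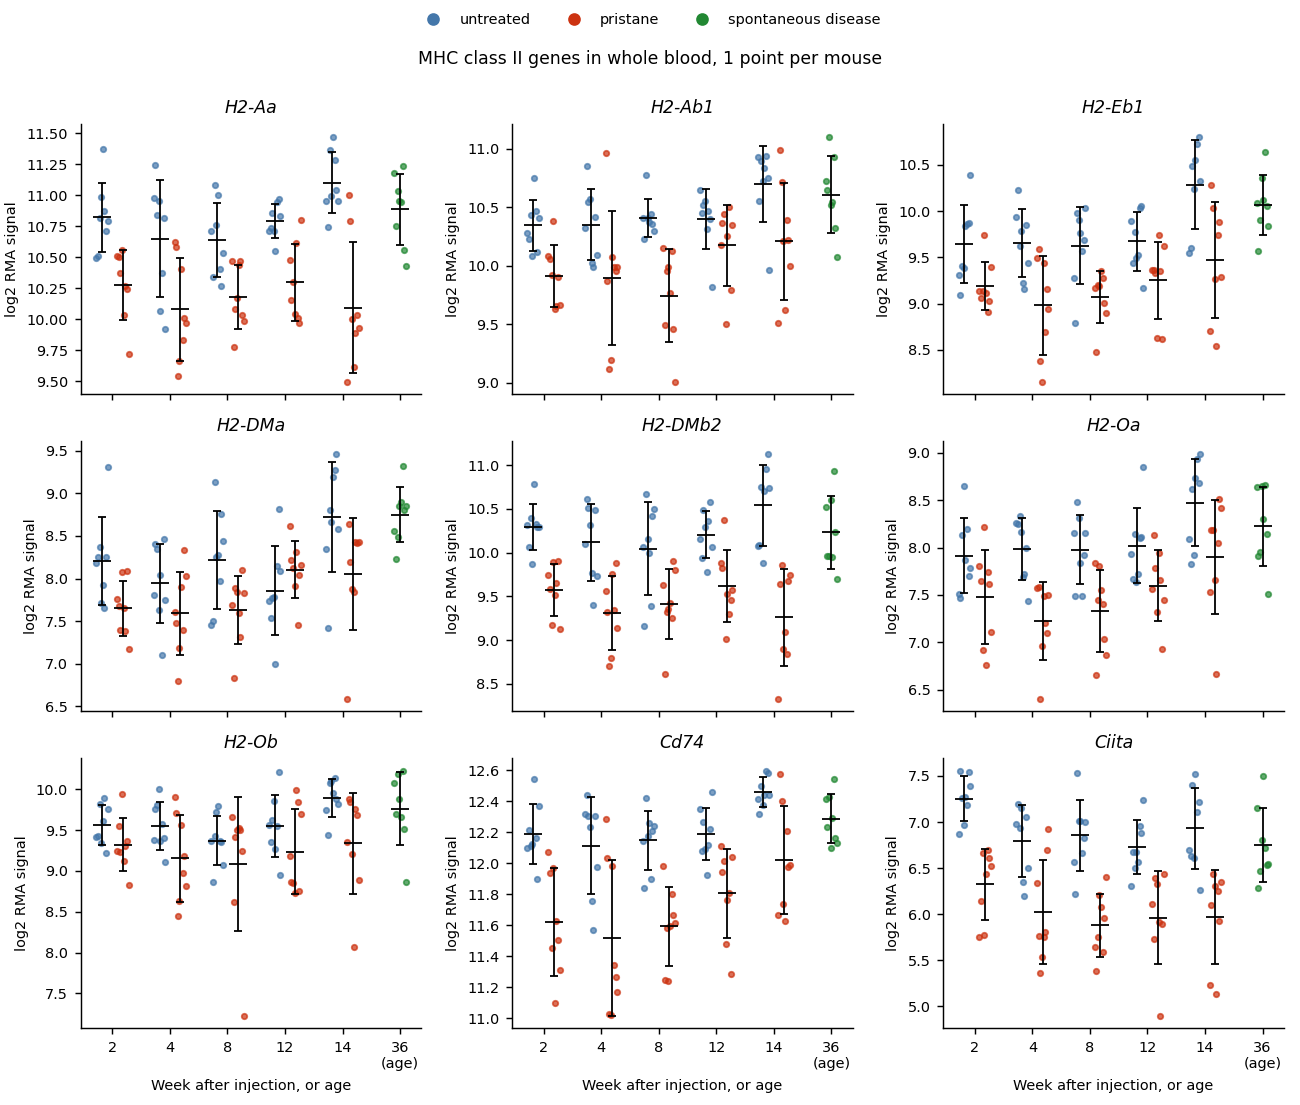
Log2 RMA signal (y axis) of each MHC class II gene in every mouse, by week after injection or, for spontaneous disease, age (x axis); black marks are group means and bars 1 SD, n = 8 per group. The pristane points of Ciita all lie below the median of the untreated points, and those of H2-Ob overlap with the untreated points at every week.

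Ciita, the regulator of the family, was lower in pristane-treated than in untreated blood at all 5 weeks. Over the 40 untreated mice its log2 signal ran from 6.19 through a median of 6.96 to 7.56, and over the 40 pristane-treated mice from 4.89 through 6.09 to 6.93. All 40 treated mice thus lay below the untreated median. At week 2 the treated mice ran from 5.75 to 6.70 with a median of 6.48 and the untreated mice from 6.87 to 7.56 with a median of 7.27, so the groups did not overlap. The difference at week 2 was -0.93 ± 0.21 (SE of the fit, n = 8 per group), or 1.91-fold lower with an adjusted p of 0.00254. It was -0.77 at week 4 (adjusted p = 0.0196), -0.98 at week 8 (0.00139), -0.76 at week 12 (0.0203) and -0.96 at week 14 (0.000265), each from limma. The groups overlapped at these 4 weeks, where 5, 7, 5 and 5 of the 8 treated mice lay below every untreated mouse. The test of any difference of the pristane effect among weeks gave an adjusted p of 0.958. A second Ciita probe set was called lower at weeks 2, 4, 8 and 14 (differences from -0.88 to -1.29, and -0.72 at week 12), while the third lay between -0.27 and 0.17 and was called at none.

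H2-DMb2, a beta chain of the peptide-exchange molecule H2-DM, had the largest difference of the 9 genes at week 14. Treated mice ran from 8.33 through a median of 9.37 to 9.85, and untreated mice from 9.88 through 10.72 to 11.13. All 8 treated mice lay below all 8 untreated mice, and the difference was -1.28 ± 0.21, or 2.43-fold lower (95% interval 1.83 to 3.23, adjusted p = 1.73e-06, limma). H2-DMb2 was also called lower at week 2 (-0.72, adjusted p = 0.0308) and week 4 (-0.80, 0.0132), and was at -0.63 (0.0886) at week 8 and -0.59 (0.111) at week 12. Its main probe set is of a design that may also match close relatives, of which H2-DMb1 is one. The H2-DMb1 probe set differed by -0.38 at week 14 with an adjusted p of 0.157, and the second H2-DMb2 probe set differed by -1.15 (adjusted p = 0.000114) at week 14 and was not called at the earlier weeks. Its partner H2-DMa, the alpha chain, was called lower at week 14 only, at -0.67 ± 0.24, 1.59-fold lower with an adjusted p of 0.0364. The treated mice ran from 6.59 through 8.30 to 8.63 and the untreated mice from 7.42 through 8.73 to 9.46, and only 1 treated mouse lay below all untreated mice. A second H2-DMa probe set, with a mean of 4.15 over the arrays, was at -0.24 at week 14 and was called at no week. This second probe set carries the array's mark for probes that may match other transcripts. It followed the main one with r = 0.30 after removal of group means. At week 12 H2-DMa was the 1 value above 0 among all members and weeks, at 0.25 (95% interval -0.23 to 0.72).

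H2-Aa, the I-A alpha chain, was called lower at week 4 and week 14. At week 14 treated mice ran from 9.49 through a median of 9.97 to 10.999 and untreated mice from 10.75 through 11.02 to 11.47. Of the 8 treated mice 6 lay below every untreated mouse, and the difference was -1.01 ± 0.17, or 2.01-fold lower (95% interval 1.60 to 2.54, adjusted p = 4.08e-06, limma). At week 4 it was -0.57 (adjusted p = 0.0459), and at weeks 2, 8 and 12 it was -0.55 (0.0517), -0.46 (0.16) and -0.49 (0.0966). The other H2-Aa probe sets did not show this. A second, with a mean of 8.47 over the arrays, differed by 0.22 at week 14 (95% interval -0.03 to 0.47), and the third, with a mean of 1.77, by 0.10. Both carry the array's mark for probes that may match other transcripts. The main H2-Aa probe set, like that of H2-DMb2, is of a design that may also match close relatives. After removal of group means the second H2-Aa probe set followed the main one with r = 0.39 and the third with r = -0.21.

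H2-Ab1, the I-A beta chain, was called lower at weeks 8 and 14. At week 8 its treated mice ran from 9.01 through 9.86 to 10.15 and its untreated mice from 10.23 through 10.39 to 10.77, so the groups did not overlap. The difference at week 8 was -0.67 ± 0.18, 1.59-fold lower (adjusted p = 0.0189, limma), and at week 14 it was -0.49 (adjusted p = 0.035) with only 2 treated mice below every untreated mouse. The third H2-Ab1 probe set was called lower at weeks 2, 4, 8 and 14, by 0.74, 0.82, 0.97 and 0.90 in log2, and a second at week 14 (-0.93). The main H2-Ab1 probe set is also of a design that may match close relatives. The second carries the mark for probes that may match other transcripts. H2-Eb1, the I-E beta chain, was called lower at week 14 alone, where treated mice ran from 8.54 through 9.51 to 10.28 and untreated mice from 9.54 through 10.41 to 10.80. The H2-Eb1 difference was -0.82 ± 0.21, 1.76-fold lower (adjusted p = 0.00216), and its differences at the earlier weeks lay between -0.67 and -0.42 with no call.

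Cd74, the invariant chain, was called lower at weeks 2, 4, 8 and 14. At week 8 treated mice ran from 11.24 through 11.60 to 11.98 and untreated mice from 11.84 through 12.19 to 12.42, and 7 of the 8 treated mice lay below every untreated mouse. The differences were -0.57, -0.60 and -0.56 at weeks 2, 4 and 8 (adjusted p = 0.0107, 0.00665 and 0.0148, limma), -0.38 at week 12 (0.15) and -0.43 at week 14 (0.0206). Unlike H2-Aa and H2-DMb2, Cd74 did not have its largest fitted difference at week 14, although the weeks were not shown to differ (adjusted p = 0.911 over all weeks). The treated mice themselves went from a mean of 11.52 ± 0.50 (SD) at week 4 to 12.02 ± 0.35 at week 14, while the untreated mice went from 12.11 ± 0.31 to 12.46 ± 0.10.

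Of the H2-DO chains, H2-Oa was called lower at week 4, with treated mice from 6.40 through 7.35 to 7.58 and untreated mice from 7.44 through 8.08 to 8.33 (-0.76 ± 0.21, 1.69-fold, adjusted p = 0.0317, limma), and at week 14 (-0.57, adjusted p = 0.0419). H2-Ob was called at none of the 5 weeks. At week 14 its treated mice ran from 8.07 through 9.52 to 9.88 and its untreated mice from 9.44 through 9.91 to 10.14, a difference of -0.56 with a 95% interval of -1.01 to -0.11 and an adjusted p of 0.067. Its differences at the earlier weeks lay between -0.40 and -0.24, and the lower ends of their 95% intervals reached -0.69, -0.85, -0.74 and -0.76. A second H2-Ob probe set lay between -0.44 and -0.25 at all weeks and was also not called.

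Counted over the family, 3 of 9 genes were called lower at week 2 (H2-DMb2, Cd74 and Ciita), where 1.29% of all 17097 genes were called lower. At week 4 it was 5 of 9 (H2-Aa, H2-DMb2, H2-Oa, Cd74 and Ciita) against 0.801%, at week 8 it was 3 of 9 (H2-Ab1, Cd74 and Ciita) against 0.778%, and at week 12 it was Ciita alone against 1.06%. At week 14 all but H2-Ob were called, 8 of 9, against 9.72%. No member was called higher at any week. The median difference of the 9 genes was -0.55, -0.60, -0.59, -0.42 and -0.67 at weeks 2, 4, 8, 12 and 14, beside medians over all genes of -0.02, -0.00, -0.01, 0.01 and 0.12. With each array centred on its 75th percentile the median of all genes at week 14 was 0.29 and that of the members -0.49. This scaling moves all genes of an array alike, so the members stay at -0.79 relative to the median of all genes by construction, and 4 of the 9 were called lower in place of 8 (H2-Aa, H2-Eb1, H2-DMb2 and Ciita), beside 6.68% of all genes.

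**Figure D2:**
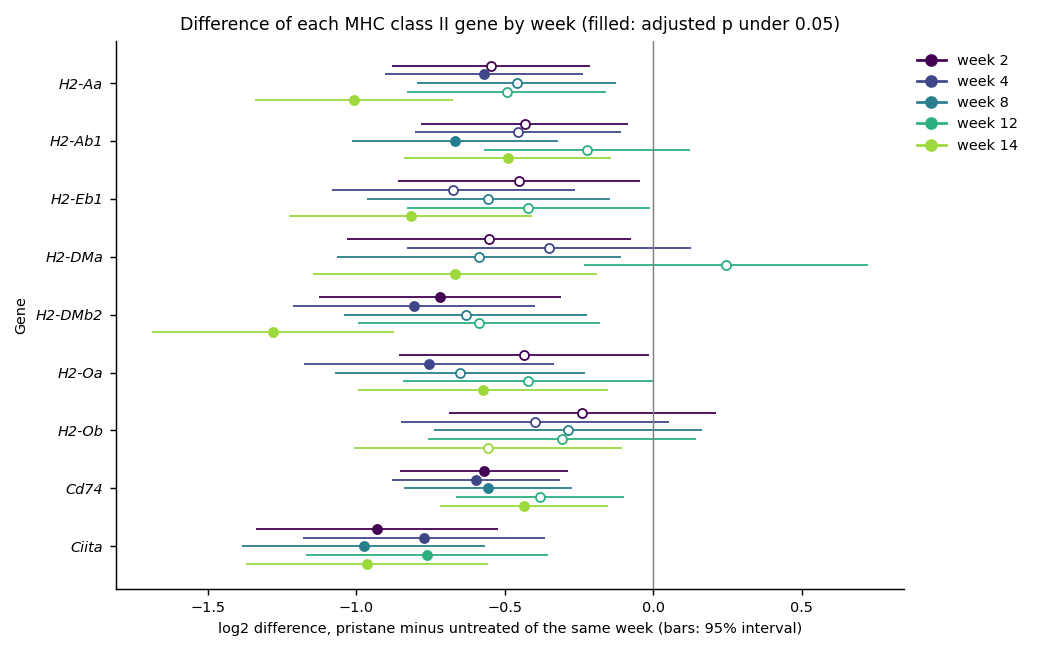
Difference of each gene (y axis) between pristane-treated and untreated mice of the same week in log2 (x axis), with 95% intervals of the fit, n = 8 per group; filled points have an adjusted p under 0.05. Ciita is filled at all 5 weeks and H2-Ob at none, and H2-DMa at week 12 is the only point above 0.

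The number of calls at week 14 depended on which untreated mice served as control. Untreated mice of week 14 had the highest mean of the 11 groups for 7 of the 9 genes, the exceptions being H2-DMa (highest in spontaneous disease, 8.75) and Ciita (highest in untreated week 2, 7.25). All 9 genes were fitted higher in untreated week 14 than in untreated week 12, by 0.21 (Ciita) to 0.86 (H2-DMa), but none was called (3 had an unadjusted p under 0.05, and limma called 0.0702% of all genes in either direction). The test for any difference among the 5 untreated weeks called none of the 9 (11.8% of all genes), with the lowest adjusted p at 0.0554 for H2-DMa and 0.0575 for H2-Eb1. Taken in pairs, untreated week 14 was called higher than untreated week 2 for H2-Eb1 (0.64, adjusted p = 0.0203) and H2-Oa (0.56, 0.0473), beside 10% of all genes, by limma. It was called higher than untreated week 4 for H2-Eb1 (0.63, adjusted p = 0.0309) and H2-DMa (0.77, 0.0242), beside 7.48% of all genes, and higher than untreated week 8 for none of the 9 (7 with an unadjusted p under 0.05, limma), beside 1.51%. Set against untreated week 12, pristane week 14 was called lower for H2-DMb2 (-0.95), Ciita (-0.76) and H2-Aa (-0.70) and for no other member, and H2-DMa turned to 0.19 with an adjusted p of 0.73, beside 3.87% of all genes called lower. Set against the mean of all 5 untreated groups the same 3 genes were called, at -0.98, -0.95 and -0.71, beside 7.49% of all genes.

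**Figure D3:**
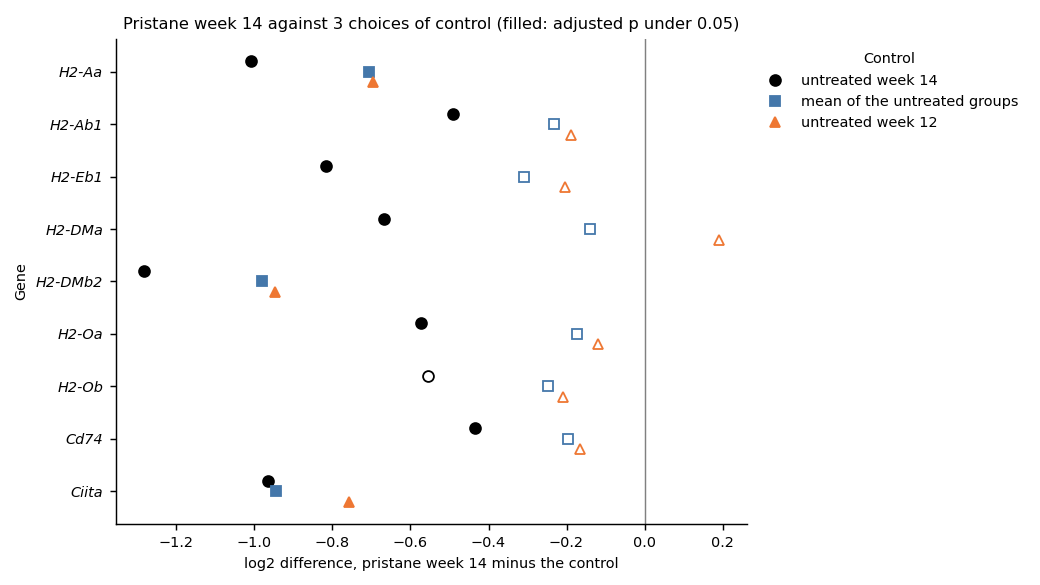
Log2 difference (x axis) of each gene (y axis) between pristane week 14 and each of 3 controls: untreated week 14, the mean of the 5 untreated groups, and untreated week 12; filled points have an adjusted p under 0.05. Against untreated week 14 all genes but H2-Ob are filled, and against the other controls H2-Aa, H2-DMb2 and Ciita are.

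The mean of all untreated groups moved the earlier weeks the other way. Against it, 7 of the 9 genes were called lower at week 2 (2.15% of all genes), 8 at week 4 (4.14%), 8 at week 8 (6.85%) and 5 at week 12 (3.68%). This control has 40 arrays in place of 8, and a larger share of all genes was called lower against it at these 4 weeks. H2-Ob was in none of these counts, and Ciita was in each. No difference in the pristane effect between weeks was shown for any member: limma called 0 of 9 for week 14 against week 2 (0 also without adjustment, with 6.87% of all genes called), 0 of 9 for week 14 against week 12 (3 with an unadjusted p under 0.05, 2.15% of all genes called) and 0 of 9 for any difference among weeks (0 without adjustment, 3.16% of all genes called).

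In spontaneous disease the class II genes lay near the untreated mice of week 14. The differences from untreated week 14 ran from -0.31 (H2-DMb2) to 0.03 (H2-DMa), and limma called none of the 9, before or after adjustment, as it called 0% of all 17097 genes, of which 594 had an unadjusted p under 0.05. H2-DMb2 ran from 9.70 through 10.10 to 10.93 in spontaneous disease, and Ciita from 6.28 through 6.63 to 7.50. The 95% interval of the H2-DMb2 difference, -0.72 to 0.10, still holds a moderate fall. Against the mean of all untreated groups the values ran from -0.16 (Ciita) to 0.56 (H2-DMa, adjusted p = 0.127), with no call, beside 1.41% of all genes called in either direction. Against single weeks the largest differences were those of H2-DMa, 0.89 from untreated week 12 (adjusted p = 0.154) and 0.81 from untreated week 4 (adjusted p = 0.0378, with 3.53% of all genes called higher).

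Set directly against spontaneous disease, pristane week 14 was lower for all 9 genes and called for 5, beside 4.42% of all genes called lower. The called genes were H2-DMb2 (-0.97, 1.96-fold, adjusted p = 0.000652), H2-Aa (-0.79, 0.000697), Ciita (-0.78, 0.00675), H2-Eb1 (-0.60, 0.0471) and H2-DMa (-0.70, 0.0487), by limma. H2-Ab1 (-0.40), H2-Oa (-0.32), H2-Ob (-0.43) and Cd74 (-0.27) were not called. For H2-Eb1 and H2-DMa the call was lost when any 1 of several arrays was left out.

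Ordered by group mean, every untreated group stood above every pristane group for each gene but H2-DMa. Spontaneous disease had rank 1 of the 11 groups for H2-DMa, rank 2 for H2-Aa, H2-Ab1, H2-Eb1, H2-Oa, H2-Ob and Cd74, rank 3 for H2-DMb2 and rank 5 for Ciita. The step between the highest and the lowest mean was 1.38 for Ciita and 1.30 for H2-Eb1 and smallest for H2-Ob at 0.81, with SDs within groups of 0.42, 0.42 and 0.46. No step between neighbours in the order was called for any gene (10 steps each). Groups further apart in the order did differ in places, as untreated week 14 did from earlier untreated weeks for H2-Eb1, H2-DMa and H2-Oa.

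Among mice of the same group the 9 genes varied together to different degrees. Over the 88 arrays after removal of group means, which share normalisation and cell mixture, the median of the 36 pairwise Pearson correlations was 0.56. H2-Aa and Cd74 had the highest r (0.76), H2-Ab1 and H2-Ob followed (0.71), then H2-Aa with H2-Ab1 (0.70) and the H2-DM chains H2-DMa and H2-DMb2 (0.69). Ciita had the lowest median r with the others, 0.35, from 0.06 with H2-Ob to 0.45 with H2-DMb2 and 0.55 with H2-DMa. The B cell chain H2-Ob also had a low r with H2-DMa (0.24) and H2-DMb2 (0.29).

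Outside the 9 members, genes of the B cell marker list were among the 3 genes most like H2-Aa, H2-Ab1 and H2-Ob across mice. H2-Ob was most like Bank1 (r = 0.80) and Ebf1 (0.78), H2-Aa was most like Ms4a1 (0.74, below its r with Cd74), which encodes CD20, and the second for H2-Ab1 was Cd79b (0.72), a chain of the B cell receptor. Igkj1, an immunoglobulin segment, was among the top 3 of H2-Aa, H2-Ab1 and Cd74, Ccr6 led for H2-Eb1 (0.72), and Ly86 led for Cd74 (0.76). For Ciita the closest gene outside the members was Lats2 (0.45), below its r with H2-DMa.

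**Figure D4:**
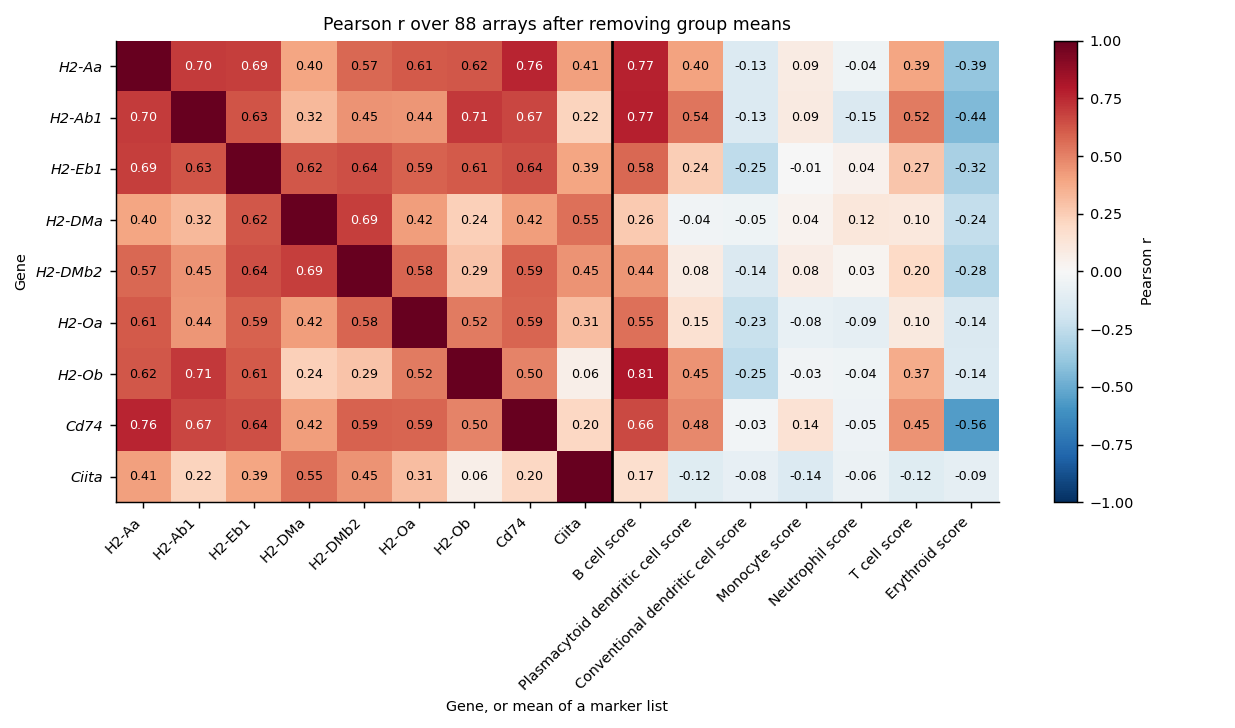
Pearson r over 88 arrays after removal of group means, for each class II gene (rows) with the other members and, right of the line, with the mean log2 signal of 7 marker lists (columns); colour and number give r. H2-Ob, H2-Ab1 and H2-Aa have the highest r with the B cell list (0.81, 0.77 and 0.77) and Ciita the lowest (0.17).

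Markers of some blood cell types moved with pristane too. Of 15 measured B cell markers, 2, 4, 1, 3 and 8 were called lower at weeks 2, 4, 8, 12 and 14 and none higher, with medians of -0.43, -0.52, -0.43, -0.40 and -0.61. Of all genes, 1.29%, 0.801%, 0.778%, 1.06% and 9.72% were called lower at the same weeks. At week 14 Cr2 (-1.29), Spib (-1.13), Ms4a1 (-1.10) and Cd79a (-0.88) were among the B cell markers called lower. The mean log2 signal of the B cell list ran from 7.78 to 9.12 over untreated mice, from 6.99 to 8.94 over pristane-treated mice and from 7.81 to 9.11 in spontaneous disease. No defining B cell marker was absent: 14 of the 15 lay above the median of all probe sets, Pax5 being the exception. Of 11 measured neutrophil markers, 10 or 11 were called higher at each week, with medians between 1.33 and 1.72, and their mean ran from 6.83 to 8.53 in untreated and from 7.70 to 10.22 in treated mice. Of all 17097 genes, 391, 372, 317, 462 and 2168 were called higher at weeks 2, 4, 8, 12 and 14. The monocyte list, whose cells can also carry class II, had medians of 0.31, 0.50, -0.03, 0.37 and -0.07 at weeks 2, 4, 8, 12 and 14. Of its 9 measured markers, 2, 2, 1, 4 and 3 were called higher at these weeks and 1, 0, 1, 1 and 1 lower. Conventional dendritic cell markers had a median of 0.14 at week 14 with 1 of 7 called lower, T cell markers -0.32 with 3 of 9 called lower, and erythroid markers 0.89 with 3 of 7 called higher. The median over all genes at week 14 was 0.12. The 1 lower call at week 14 among dendritic cell and among monocyte markers is near the share of all genes, 9.72%. Of the 7 dendritic cell markers 5 lay above the median of all probe sets.

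With the B cell score of each array as a covariate, Ciita remained called at weeks 2 (-0.84), 8 (-0.89) and 14 (-0.85), and H2-DMb2 (-0.99) and H2-Aa (-0.59) at week 14, and no other member was called at any of the 5 weeks. Of all genes, 3.98%, 0.912%, 0.708%, 0.48% and 4.66% were called lower at weeks 2, 4, 8, 12 and 14 in these fits. H2-Ob, the gene most tied to the B cell list, went from -0.56 to 0.04 at week 14, and H2-Ab1 from -0.49 to -0.06. With the neutrophil score as covariate, which itself separates most treated from untreated mice, no member was called at weeks 2, 4, 8 and 12 (5, 5, 5 and 2 had an unadjusted p under 0.05 in limma), and H2-Aa, H2-Eb1, H2-DMa, H2-DMb2 and Ciita were called at week 14. The median difference of the 9 genes in these fits was -0.51, -0.57, -0.49, -0.32 and -0.87 at the 5 weeks, beside -0.55, -0.60, -0.59, -0.42 and -0.67 without the covariate. Of all genes, 0.333%, 0.164%, 0.737%, 0.076% and 11.5% were called lower with it. These are fits with a measured covariate, and the part of cell numbers in the differences was not tested.

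**Figure D5:**
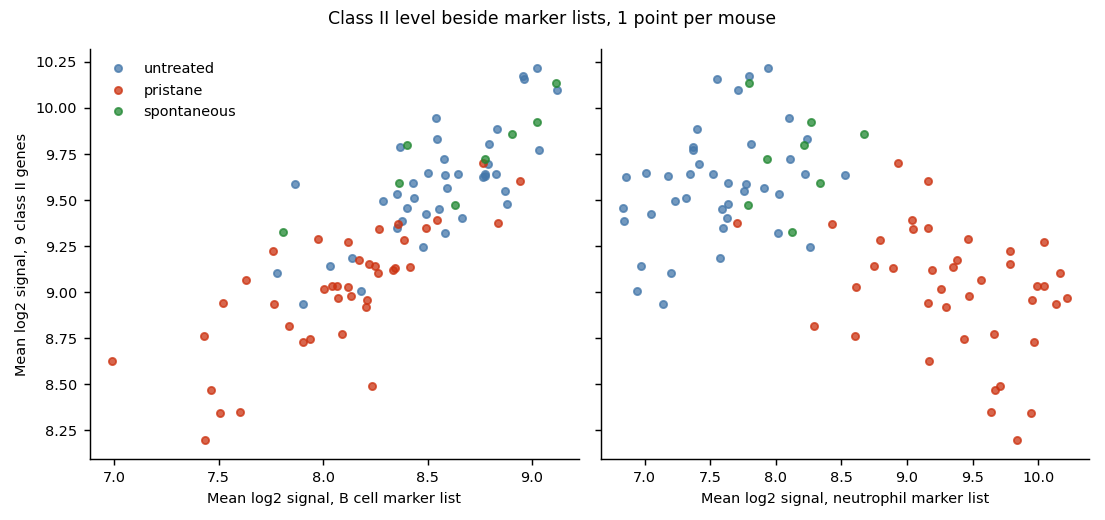
Mean log2 signal of the 9 class II genes (y axis) beside that of the B cell list (left, x axis) and the neutrophil list (right, x axis), 1 point per mouse. The class II level runs with the B cell level within each condition, and treated mice lie at higher neutrophil levels.

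Of the factors that act on class II promoters, 14 of 16 listed genes were measured. At week 14 5 were called lower and none higher, beside 9.72% of all genes called lower. Irf4 was 2.64-fold lower (adjusted p = 7.84e-06), Creb1, which binds the X2 box, 2.53-fold (8.72e-05), and Rfx5, the RFX subunit bound at the X box, 1.80-fold (0.000181), by limma. Nfyc and Nfya, genes of 2 subunits of the Y box factor NF-Y, were 1.43-fold and 1.59-fold lower, and the third, Nfyb, was not called (-0.36, adjusted p = 0.151, limma). Binding of NF-Y at the stretches shown above was not measured. The other RFX subunits, Rfxap (-0.23) and Rfxank (-0.05), were not called at week 14. These week 14 values, and those of the next paragraph, are against untreated week 14 only. In untreated week 14 against untreated week 12 the 14 regulators had a median of 0.36, with 3 fitted lower and none called. The mean of their list was 7.76 in untreated week 14 and 7.57 in untreated week 12. Earlier, 0, 0, 1 and 1 of the 14 were called lower at weeks 2, 4, 8 and 12 and 0, 1, 0 and 1 higher, among them Rfxank lower at week 12 (-0.71, adjusted p = 0.0219, limma) and Spi1, which encodes the myeloid factor PU.1, higher at week 4 (0.96, 0.0188). Of all 17097 genes, 1.29%, 0.801%, 0.778% and 1.06% were called lower at these 4 weeks, and 391, 372, 317 and 462 genes higher. A single call among 14 genes does not set the list apart from these shares.

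Of the remaining class II genes, H2-Ea, the I-E alpha chain, was called lower at week 14 (-0.81, 1.75-fold, adjusted p = 0.000749) and H2-Eb2 (-0.53) and H2-DMb1 (-0.38) were not. The 11 genes of antigen processing and class II turnover had no common direction at week 14: 3 were called lower and 3 higher. Of all 17097 genes, 1662 were called lower and 2168 higher at that week. The lysosomal protease gene Ctsd was 2.12-fold higher (adjusted p = 1.59e-07) and the asparaginyl endopeptidase gene Lgmn 1.92-fold higher (0.0165), while Ifi30, a thiol reductase that opens disulphide bonds of antigens, was 1.62-fold lower (0.00196) and Cd83, which protects surface class II from turnover, 1.79-fold lower (0.00269). Ctss, the protease that trims the invariant chain in B cells and dendritic cells, was at -0.18 (adjusted p = 0.373). Of 6 surface partners, the class II ligand gene Lag3 was 1.82-fold higher (0.000101) and Cd40, the B cell receptor for T cell help, 1.64-fold lower (0.0255) at week 14, each by limma.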

How the data were processed

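Per the labels and the study's methods, total RNA of snap-frozen whole blood was amplified with a NuGEN Ovation kit and hybridised to mouse HT-MG-430 PM arrays. The authors made the deposited log2 values with RMA, and the submitters' processing notes also name Partek. The table held 45141 probe sets, of which 104 controls were left out. By the platform annotation 28898 probe sets had 1 gene, 551 several and 15588 none listed. Here 1 limma model (limma 3.58.1, R 4.3.3) of 11 group means over the 88 arrays (77 residual degrees of freedom) was fitted to all 45037 probe sets, with Benjamini-Hochberg adjustment over all of them and contrasts between groups. The p-values set a difference of group means against the spread between mice within groups. That spread is pooled over the 11 groups and moderated across probe sets. The number of arrays limits the precision. Shares of all genes called count 1 probe set per gene. Marker and pathway lists were given as means of log2 values, and likeness as Pearson r over arrays after removal of group means. In the B cell and pathway lists, named genes were the 4 with the largest moderated t at week 14 among those called, any called at 3 or more weeks, and others named for their role. Genes of the other cell type lists were not named above, although some were called at 3 or more weeks. Among these were Ccr9, Cx3cr1, Fcgr1 and Cd2 at 3 weeks and Cd14, S100a8 and S100a9 at all 5. The members and lists were chosen with earlier results of these data known. The fit was tested on simulated data. Replicate numbers were not taken to pair the mice, and no block was used in the main fit. Of 8 same-numbered pairs per week, 1 to 3 had a correlation of deviations over 0.1, the highest being 0.54 at week 4. No chance level was set for this cut, so a structure shared by same-numbered mice was not excluded. Alternatives covered probe set choice, scaling, filters, covariates, controls and left-out arrays. Some list genes, such as B2m and Tap1, were not analysed here.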

Additional observations from a re-analysis of the deposited data

Results flagged for a closer look

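Of 99 combinations of gene and group tested, 8 held 1 array whose gap to its nearest neighbour was a large share of the range of its group (above Dixon's 95% value for 8 samples), where chance gives about 1 in 20, or 4.95. For H2-Ab1 these were the highest array of untreated week 8 (replicate 3, 10.7735) and the lowest of untreated week 12 (replicate 8, 9.8185) and of untreated week 14 (replicate 8, 9.96501). For H2-DMa they were the highest array of untreated week 2 (replicate 8, 9.30338) and the lowest of pristane week 14 (replicate 1, 6.58666). H2-Oa had a high array in untreated week 12 (replicate 8, 8.85332), H2-Ob a low one in pristane week 8 (replicate 8, 7.22132) and Ciita a low one in pristane week 12 (replicate 6, 4.89318). Without pristane week 14 replicate 1 H2-DMa was no longer called at week 14 (-0.46, adjusted p = 0.156, limma), and without pristane week 12 replicate 6 Ciita was no longer called at week 12 (-0.61, adjusted p = 0.099). Without untreated week 8 replicate 3 H2-Ab1 at week 8 was at -0.62 (adjusted p = 0.0531).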

How the results depend on the processing

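The fitted directions of the 9 genes against the untreated mice of the same week were kept in most settings, while counts of calls moved widely. The cause was not tested. Shares of all genes called are given above for only some of these settings. Where no share is given, a count shows how the calls moved and does not set the members against other genes. With a change above 2-fold also required, 0 members were called at weeks 2, 4, 8 and 12, 2 at week 14 and 0 for pristane week 14 against spontaneous disease. With the probe set of second highest mean, 3 were called at week 4, 0 at week 12 and 1 for the effect at week 14 against week 2, and H2-Aa turned to 0.22 at week 14 and to 0.23 against spontaneous disease. With the mean of all probe sets of a gene, 0 were called at week 12 and 2 among untreated weeks, and with dim probe sets removed 2 among untreated weeks. Quantile normalisation gave 5 at week 2 and 2 at week 12. Centring on the 75th percentile gave 4 at week 14 and 3 against spontaneous disease. Fits of the compared groups alone gave 1 at week 4, 2 at week 12, 5 at week 14, 3 against spontaneous disease and 1 among untreated weeks. Array weights gave 3 against spontaneous disease, 3 for untreated week 14 against week 12 and 5 among untreated weeks. The interquartile range as covariate gave 5 at week 2, 4 at week 14 and 3 against spontaneous disease. The B cell score gave 1, 0, 1, 0 and 3 at weeks 2, 4, 8, 12 and 14 and 3 against spontaneous disease, the neutrophil score 0, 0, 0, 0 and 5, and the erythroid score 1 at week 8, 4 at week 14 and 3 against spontaneous disease. The mean of all untreated groups as control gave 7, 8, 8, 5 and 3 over the 5 weeks, and untreated week 12 as control gave 3 at week 14, where H2-DMa turned to 0.19.

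With the replicate number as a block, 1 member was called among untreated weeks in place of 0, and no other count moved by over 1.5 times. Same-numbered mice correlated best with their own number in 1 to 3 of 8 pairs. The longer Y box was in 3 promoters in place of 6. Leaving out 1 array at a time gave 2 to 4 calls at week 2, 1 to 7 at week 4, 2 to 4 at week 8, 0 to 2 at week 12, 4 to 9 at week 14, 3 to 6 for pristane week 14 against spontaneous disease, 0 to 1 for untreated week 14 against week 12, 0 to 2 among untreated weeks, and 0 throughout for the spontaneous comparison and the 3 tests between weeks. At week 14 the count was 4 without pristane replicate 1, 4 or 5 and 5 without untreated replicate 3, 5, 6 or 7. At week 4 it was 1 without pristane replicate 3, 2 without pristane replicate 4 or untreated replicate 2 or 4, and 3 without pristane replicate 6 or 7 or untreated replicate 1 or 3. At week 12 it was 0 without pristane replicate 6 or untreated replicate 8 and 2 without pristane replicate 3 or 8. Against spontaneous disease it was 3 without pristane week 14 replicate 1, 4 or 5 or spontaneous replicate 3, 4, 5, 6 or 7. For untreated week 14 against week 12 it was 1 (H2-DMa) without untreated week 14 replicate 2 or untreated week 12 replicate 7. Among untreated weeks it was 2 without replicate 2 of week 14, 3 of week 8, 2 of week 4 or 8 of week 2, and 1 without replicate 1 of week 14, 7 of week 12, 1, 2 or 8 of week 8 or 7 of week 4. H2-DMb2 at week 14 was called in all settings, probe sets included.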

Other observations

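The MHC class I pathway shows peptides to CD8+ T cells. Of its 7 measured genes, limma called none in either direction at weeks 2, 4, 8, 12 or 14. Of all 17097 genes, 221, 137, 133, 182 and 1662 were called lower at these weeks and 391, 372, 317, 462 and 2168 higher. With 7 genes, no call at weeks 2 to 12 is near these shares. An unadjusted p under 0.05 in either direction was found for 2923, 2295, 2267, 2599 and 6327 of all genes in limma. At an unadjusted p under 0.05, 0 were lower and 2 higher at week 2, 0 and 2 at week 4, 0 and 0 at week 8, 0 and 1 at week 12, and 1 and 1 at week 14. At week 14 the heavy chain genes H2-K1 and H2-D1 were at -0.03 and 0.32, and the immunoproteasome gene Psmb8 was at -0.44 (adjusted p = 0.154). Nlrc5, the class I transactivator and a relative of Ciita, was at -0.23 (adjusted p = 0.512), beside -0.96 for Ciita. In untreated week 14 against week 12 all 7 were fitted higher, with a median of 0.38 beside 0.33 for the class II genes, and none was called (4 with an unadjusted p under 0.05, limma). Of all 17097 genes, 0.0702% were called in this comparison and 2911 had an unadjusted p under 0.05 in limma, in either direction. Over the 88 arrays after removal of group means, the mean of the class I genes had r from 0.01 (Ciita) to 0.48 (Cd74) with the class II genes. The difference between the class I and class II genes was not tested.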
